A study of Mus musculus with 9 samples.

Results

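Interferon-stimulated genes were followed in single cells of the adult mouse brain, as a list of 38 genes known to be switched on by type I interferon and chosen by symbol. Of these, 37 were found among the 31053 genes of the count tables, and Mx2 was not. They held 712012 of the unique molecular identifiers (UMIs, tags that mark each captured transcript so that its amplified copies count once) over all barcodes, and 469722, or 0.207% of all UMIs, in the cells kept for analysis. In this 3′ assay a transcript is tagged at its end, so counts do not grow with transcript length, although capture can still differ between transcripts.

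Type I interferons are cytokines that cells release after their sensors meet foreign or misplaced nucleic acid. They bind a receptor made of Ifnar1 and Ifnar2, and the kinases Jak1 and Tyk2 then phosphorylate transcription factors, among them Stat2, which joins Irf9 in a complex that binds a short DNA element, the interferon-stimulated response element, beside its targets. The products of those targets include nucleic acid sensors, proteins that block viral entry, translation or release, and regulators that prolong or end the response. In the brain, microglia, the resident macrophages, and endothelial cells are both known to answer interferon, and microglia depend on the receptor CSF1R for survival.

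All cells came from brains of female C57BL/6 mice (the C57BL/6J substrain in the methods of the study) aged 5 months and were sorted for CD11b, a surface protein of myeloid cells. Ctrl mice received no treatment. Mice of the D0 group were fed a diet with PLX5622, a CSF1R inhibitor that removes most microglia, at 1200 mg/kg for 14 days, and D2 mice had the same diet for 14 days and then a control diet for 2 days. A Ctrl library held the cells of 1 mouse and a D0 or D2 library the pooled cells of 2 mice, so the library was the replicate, with 3 Ctrl and 3 D0 libraries and 2 D2 libraries in the comparisons. A further library of D2 mice, D2-3, was set aside by the study and is given apart. D0 and D2 cells are those that outlasted the inhibitor, or their offspring after its withdrawal, and a difference from Ctrl cannot be told apart from a difference in which cells were left.

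The 9 libraries held between 20257894 and 61230741 UMIs each, and the median UMI count per kept cell lay between 4810 and 9243. Of 36391 barcodes, 30463 cells were kept, 28655 of them in the 8 libraries compared. Clusters were drawn without the 37 genes, and 21760 cells of the 8 libraries fell into clusters with at least 3 of 12 microglial markers above a set level (microglia-like cells, 12128410 to 36419190 UMIs per library). The 12 markers were all found there, among them P2ry12 at 1659 UMIs per 1000000 UMIs (CPM). D2-3 had 784 microglia-like cells and 501 monocyte-like cells, against 10 to 128 monocyte-like cells in the other libraries, and 37.3% of its barcodes were above the upper UMI limit. Headers of the files give Cell Ranger 3.0.2 for Ctrl-1, the 3 D0 libraries, D2-1 and D2-2, and 3.1.0 for D2-3 and for the other Ctrl libraries, Ctrl-2 and Ctrl-3, so software version and condition overlap in part. At most 7 barcodes were shared by any 2 libraries.

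The interferon-stimulated response element lies beside targets of interferon, and the list was made of genes known to be switched on by interferon. Matches to it thus describe the list and are no independent support for it. In promoters from 250 bases before to 50 after the start (RefSeq, GRCm38.p6), the letters GAAANNGAAA, on either strand and with overlapping matches allowed, were found for 18 of the 28 members with a promoter in the table (64.3%), against 3.99% of 27025 genes. The 150 bases before the start are shown 5′ to 3′ for 5 members that were higher in D0 and D2 microglia-like cells and hold the element, for Slfn2, which was also higher but holds no match, and for Gbp7, which holds a match but was not called. Capitals mark the matches to GAAANNGAAA or its reverse complement.
Isg15 (chr4:156200819-156200968, minus strand): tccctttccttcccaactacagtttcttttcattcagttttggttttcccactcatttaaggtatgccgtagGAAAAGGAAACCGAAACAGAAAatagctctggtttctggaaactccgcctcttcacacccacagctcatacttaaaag
Ifit1 (chr19:34640739-34640888, plus strand): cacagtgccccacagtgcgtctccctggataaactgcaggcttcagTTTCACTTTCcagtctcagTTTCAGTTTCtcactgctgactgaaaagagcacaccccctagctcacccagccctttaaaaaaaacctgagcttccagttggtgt
Oas1a (chr5:120907526-120907675, minus strand): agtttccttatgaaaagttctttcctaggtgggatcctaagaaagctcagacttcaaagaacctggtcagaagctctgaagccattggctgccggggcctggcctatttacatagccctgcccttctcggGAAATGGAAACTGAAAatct
Bst2 (chr8:71537473-71537622, minus strand): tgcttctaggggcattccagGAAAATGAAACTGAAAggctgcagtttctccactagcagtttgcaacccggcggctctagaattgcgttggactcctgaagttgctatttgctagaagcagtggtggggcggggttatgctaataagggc
Gbp2 (chr3:142620513-142620662, plus strand): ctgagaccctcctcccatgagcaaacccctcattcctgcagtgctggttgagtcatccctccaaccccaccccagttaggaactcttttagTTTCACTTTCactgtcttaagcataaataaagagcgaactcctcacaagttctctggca
Slfn2 (chr11:83064962-83065111, plus strand): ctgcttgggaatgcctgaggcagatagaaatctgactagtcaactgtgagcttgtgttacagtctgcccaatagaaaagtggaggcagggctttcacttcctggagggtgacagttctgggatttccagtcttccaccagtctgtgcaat
Gbp7 (chr3:142530186-142530335, plus strand): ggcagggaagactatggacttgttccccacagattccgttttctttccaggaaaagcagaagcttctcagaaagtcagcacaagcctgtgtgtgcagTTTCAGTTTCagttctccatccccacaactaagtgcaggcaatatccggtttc
In these windows 3 overlapping matches run together before Isg15, 2 overlap before Oas1a and before Bst2, 2 stand apart before Ifit1, and 1 lies before Gbp2 and before Gbp7. Among members called in both D0 and D2, 10 of 14 with a promoter held a match (71.4%), and among those called in neither, 4 of 9 (44.4%). A match is a run of letters and does not show that a factor binds there, and the absence of one says only that these letters are not in the window.

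Microglia-like cells that outlasted PLX5622 carried more UMIs of interferon-stimulated genes than microglia-like cells of untreated mice. The summed level of the 37 genes was 974, 719 and 770.5 CPM in the Ctrl libraries, 1627, 1897 and 1679 CPM in the D0 libraries and 2443 and 2436 CPM in the D2 libraries. All D0 libraries lay above all Ctrl libraries, the means differing by 2.11-fold (821 ± 135 CPM and 1734 ± 144 CPM, SD, n = 3 each), and the 2 D2 libraries lay above all D0 libraries. Without Ifi27l2a the sum was 1.52 times as high in D0 as in Ctrl, and without Ifi27l2a, Ifitm3 and Bst2 it was 1.34 times as high, so that these 3 genes carried much of the change in UMIs. The levels are UMIs per 1000000 UMIs of microglia-like cells in that library.

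All 37 genes had enough counts for the test over 12401 genes (edgeR quasi-likelihood test on UMIs summed per library, Benjamini-Hochberg adjusted p under 0.05). In D0 against Ctrl, 23 of the 37 rose and 0 fell, against 12.3% of all genes called higher and 7.58% called lower (19.9% in all). At an unadjusted p under 0.05, 27 were higher and 0 lower, against 34.1% of all genes in either direction, and DESeq2 called 25. Their median log2 fold change was 1.06, compared to -0.05 over all genes tested. On the plain CPM scale, 23 members had all D0 libraries above all Ctrl libraries, as 12.5% of all genes had, and 1, Gbp7, had all D0 libraries below, as 35.8% of all genes had. A fit that also held the Cell Ranger version as a factor called 14 members, each of them among the 23, and with D2-3 added to the fit, 9 were. The share of all genes called is not given for these fits or for DESeq2, so the change in calls cannot be set against that of other genes. Compared with Ctrl-1 alone, the Ctrl library of the same version, 24 of the 37 had all D0 libraries higher, although Ctrl-1 was the highest Ctrl library for 29 of the 37. For neither count was the share of all genes taken, so neither can be read as particular to the list.

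**Figure D1:**
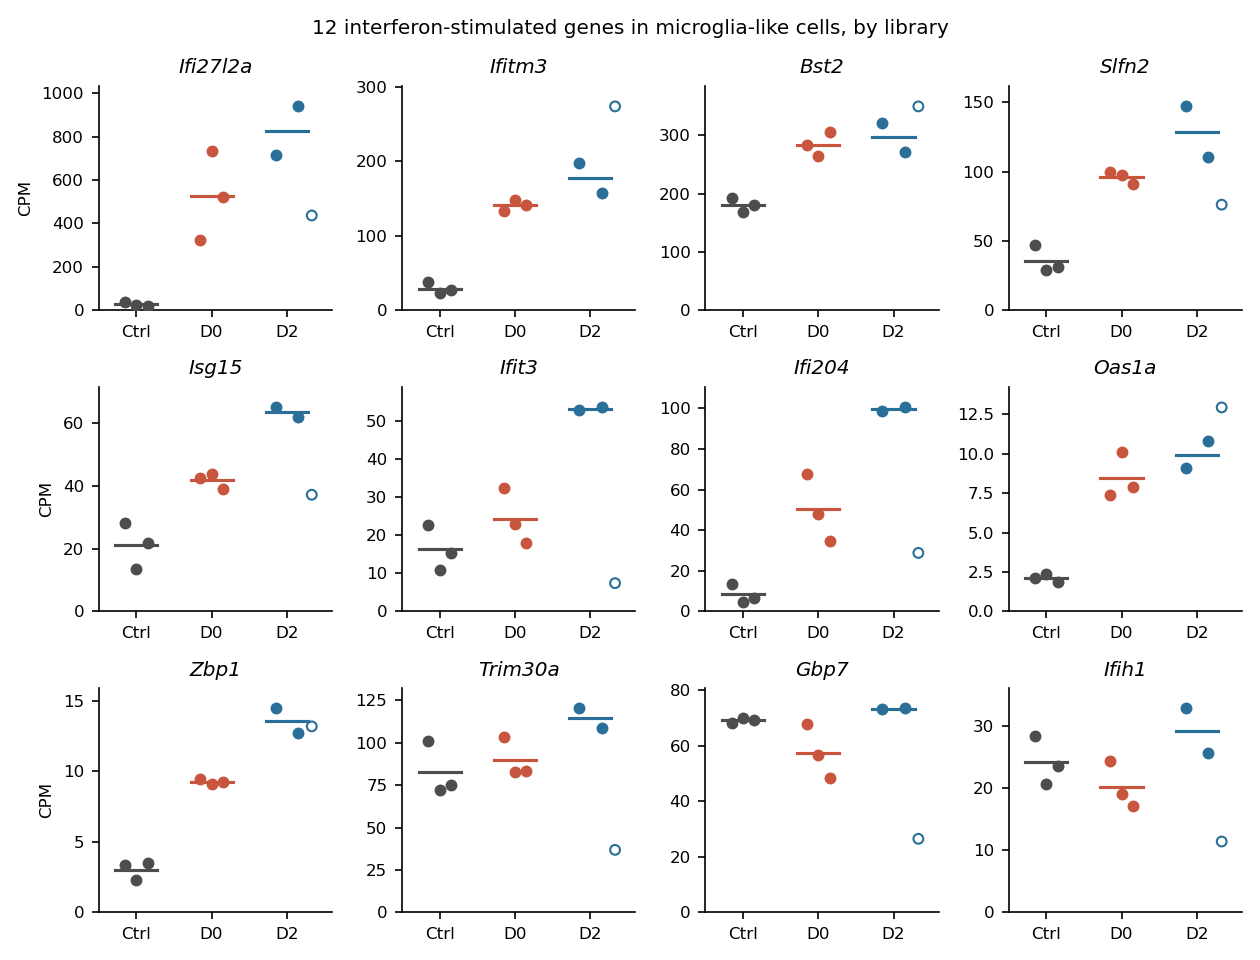
Levels of 12 interferon-stimulated genes in microglia-like cells, as CPM on a linear axis that starts at 0, with filled points for single libraries, bars for group means (3 Ctrl, 3 D0 and 2 D2 libraries) and an open circle for D2-3. Ifi27l2a, Ifitm3, Bst2, Slfn2, Isg15, Ifi204, Oas1a and Zbp1 have every D0 library above every Ctrl library, whereas Ifit3, Trim30a, Gbp7 and Ifih1 do not.

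The largest fold change among the 37 genes belonged to Ifi27l2a (chr12, 103442167-103443680, minus strand, GRCm38), which encodes a small membrane protein. Its level was 40.2, 24.8 and 18.3 CPM in the Ctrl libraries, 324, 735 and 520.5 CPM in the D0 libraries and 716 and 939 CPM in the D2 libraries. The lowest D0 library was thus far above the highest Ctrl library, with a fitted 22.3-fold rise in D0 (log2 4.48 ± 0.38, edgeR adjusted p = 4.75e-05) and a 32.5-fold rise in D2. D0 libraries also differed among themselves, by more than the D2 libraries did.

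Genes for membrane and vesicle proteins rose, 2 of 2 in D0 and in D2. Ifitm3, whose product blocks the fusion of viruses with endosomes, stood at 37.7, 22.8 and 27.6 CPM in the Ctrl libraries, 133, 148 and 142 CPM in the D0 libraries and 198 and 158 CPM in the D2 libraries. The D0 libraries lay close together and well above Ctrl (log2 2.48 ± 0.17, edgeR adjusted p = 1.07e-05), and in D2 the log2 fold change was 2.71 ± 0.18. Bst2, or tetherin, which holds budding virus at the cell surface, was high already in Ctrl, at 192, 169 and 180.1 CPM in the Ctrl libraries, 283, 264 and 305 CPM in the D0 libraries and 321 and 272 CPM in the D2 libraries. Its rise was smaller, 1.82-fold in D0 and 1.77-fold in D2, and equally free of overlap with Ctrl.

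Isg15, a ubiquitin-like modifier that is joined to proteins, and Usp18, the protease that removes it and also damps the interferon receptor, both rose, whereas Herc6, an enzyme that attaches Isg15 in mice, was not called. Isg15 was at 28.2, 13.5 and 21.8 CPM in the Ctrl libraries, 42.6, 43.8 and 39 CPM in the D0 libraries and 64.9 and 61.8 CPM in the D2 libraries. The log2 fold change of Isg15 was 1.19 ± 0.20 in D0 and 1.69 ± 0.22 in D2, with the D2 libraries above the D0 libraries. Usp18 followed at 5.32, 3.53 and 5.51 CPM in the Ctrl libraries, 9.04, 10.05 and 11.7 CPM in the D0 libraries and 16.5 and 11.8 CPM in the D2 libraries. Herc6 stood at 39.7, 27.5 and 28.9 CPM in the Ctrl libraries, 30.8, 24.5 and 24 CPM in the D0 libraries and 36.8 and 30.3 CPM in the D2 libraries, with D0 libraries that overlapped Ctrl.

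Of the 4 Ifit genes, which lie side by side on chromosome 19 and whose products bind viral RNA, 3 rose in D0 (Ifit1, Ifit2 and Ifit3b) and 4 in D2. Ifit2 showed 11.5, 7.44 and 8.54 CPM in the Ctrl libraries, 18.7, 15 and 15.9 CPM in the D0 libraries and 34.1 and 32.5 CPM in the D2 libraries, with no overlap between the 3 groups. Ifit3 was at 22.6, 10.9 and 15.4 CPM in the Ctrl libraries, 32.4, 22.8 and 18 CPM in the D0 libraries and 52.8 and 53.6 CPM in the D2 libraries. D0-3 lay below Ctrl-1 for Ifit3, and the gene missed the threshold in D0 (log2 0.79 ± 0.25, edgeR adjusted p = 0.0518) and passed it in D2 (log2 1.82 ± 0.27). Ifit3b, at 3.47 ± 1.36 CPM in Ctrl and 6.34 ± 2.65 CPM in D0 (SD, n = 3), overlapped between these groups although it was called, a call lost in 13 of 24 alternatives. With the replicate number as a block, Ifit3 passed in D0 too (log2 0.79 ± 0.20, SE, edgeR adjusted p = 0.0282). Ifit3 and Ifit3b are near-identical copies, and how their reads were divided is uncertain.

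The Oas genes encode enzymes, or relatives of them, that meet double-stranded RNA and make a messenger for RNase L. Oasl2, Oas1a and Oas2 rose in D0 and D2, Oas3 rose in D0, and Oasl1 was not called. Oas1a was at 2.11, 2.36 and 1.84 CPM in the Ctrl libraries, 7.36, 10.1 and 7.91 CPM in the D0 libraries and 9.06 and 10.8 CPM in the D2 libraries, so that each treated library held at least 3 times the level of any Ctrl library. Oasl2 was at 5.94, 3.11 and 5.02 CPM in the Ctrl libraries, 9.62, 9.94 and 10.5 CPM in the D0 libraries and 15.9 and 13.4 CPM in the D2 libraries. Oas2 and Oas3 were near the limit of these counts, with 213 and 84 UMIs over the 8 libraries, and the call of Oas3 in D0 rests on a Ctrl mean of 0.186 CPM. It was lost in 8 of 23 alternatives, and the call of Oas2 in 7 in D0 and 4 in D2. Similar members of this family may share reads.

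Among the 6 nucleic acid sensors, 4 rose in D0 and in D2, and of the 3 RIG-I-like RNA helicases only Dhx58 rose. Ifi204, a DNA-binding protein of the PYHIN family, was at 13.6, 4.77 and 6.74 CPM in the Ctrl libraries, 67.9, 48.1 and 34.8 CPM in the D0 libraries and 98.6 and 101 CPM in the D2 libraries. Its log2 fold change was 2.79 ± 0.34 in D0 and 3.68 ± 0.37 in D2, and Ifi207, a close relative whose reads may be hard to divide from it, had 2.66 ± 0.37 and 3.94 ± 0.40. Zbp1, a sensor of Z-form nucleic acid that can start cell death, was at 3.33, 2.3 and 3.47 CPM in the Ctrl libraries, 9.46, 9.12 and 9.27 CPM in the D0 libraries and 14.5 and 12.7 CPM in the D2 libraries. The 3 D0 libraries of Zbp1 lay close together and above all Ctrl libraries. Ddx58 (RIG-I) was not called, at 31.9, 21.1 and 21.4 CPM in the Ctrl libraries, 25, 17.9 and 19.1 CPM in the D0 libraries and 26.9 and 23.1 CPM in the D2 libraries. Ifih1 (MDA5) was not called either, at 28.3, 20.7 and 23.5 CPM in the Ctrl libraries, 24.4, 19 and 17.2 CPM in the D0 libraries and 32.8 and 25.6 CPM in the D2 libraries. Their D0 values overlapped Ctrl, whereas Dhx58 (LGP2), a regulator of both, rose to 1.68-fold (log2 0.75 ± 0.16, edgeR adjusted p = 0.0105).

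Of the GTPases, Mx1, Gbp2 and Gbp3 rose in D0 and D2 and Gbp7 did not. Mx1, a dynamin-like protein that traps viral particles, was at 5.06, 2.68 and 4 CPM in the Ctrl libraries, 8.88, 7.03 and 8.22 CPM in the D0 libraries and 15.2 and 10.3 CPM in the D2 libraries. Gbp2, one of the guanylate-binding proteins that coat the vacuoles of pathogens, was at 6.67, 5.3 and 6.13 CPM in the Ctrl libraries, 13.3, 12.9 and 7.81 CPM in the D0 libraries and 20.1 and 23 CPM in the D2 libraries. For Gbp2 the D2 libraries lay above all others. Gbp7 was higher in Ctrl than these 3 genes, at 68.4, 69.9 and 69.4 CPM in the Ctrl libraries, 67.7, 56.7 and 48.3 CPM in the D0 libraries and 73.2 and 73.5 CPM in the D2 libraries, and its fitted log2 fold change in D0 was -0.07 ± 0.13.

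In the Schlafen family, Slfn2 and Slfn5 rose in D0 and D2 and Slfn8 did not. Slfn2, which is known for keeping T cells quiescent, stood at 47, 29.1 and 31.3 CPM in the Ctrl libraries, 99.7, 97.9 and 90.9 CPM in the D0 libraries and 147 and 111 CPM in the D2 libraries. All D0 libraries held about the same level, with a mean 2.69 times that of Ctrl. Slfn5 was at 9.69, 5.57 and 5.06 CPM in the Ctrl libraries, 19.8, 14.4 and 12.1 CPM in the D0 libraries and 36.1 and 19.5 CPM in the D2 libraries. Slfn8 was at 60.1, 36.7 and 39.9 CPM in the Ctrl libraries, 41, 27.1 and 27.6 CPM in the D0 libraries and 51 and 46.4 CPM in the D2 libraries. Slfn8 overlapped between D0 and Ctrl and had the lowest D0 fold change of the 37 genes (log2 -0.31 ± 0.19).

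Genes for nucleotide and RNA enzymes were called in D2 only, 2 of 3, a difference from D0 that itself was not called. Rsad2, or viperin, which makes a chain-ending nucleotide, was at 3.72, 1.39 and 4.29 CPM in the Ctrl libraries, 6.1, 5.22 and 5.62 CPM in the D0 libraries and 13 and 8.74 CPM in the D2 libraries. Its D0 libraries were all above Ctrl, although the adjusted p of edgeR was 0.0525 (0.0220 with the replicate number as a block, log2 1.14 ± 0.28). Cmpk2, a mitochondrial nucleotide kinase next to Rsad2 on chromosome 12, was lower, with 252 UMIs in all, and reached a log2 fold change of 1.52 ± 0.45 in D2. Its call was lost in 13 of 23 alternatives, among them the fits without Ctrl-2, Ctrl-3, D0-2, D0-3, D2-1 or D2-2, whereas that of Rsad2 in D2 was lost in 3 of 24. Isg20, a nuclease, did not pass in either comparison.

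Among the remaining members, Rtp4, a chaperone of membrane receptors, and Xaf1, a promoter of apoptosis, rose in D0 and D2. Rtp4 was at 17.8, 14.6 and 16.3 CPM in the Ctrl libraries, 29.2, 27.6 and 32 CPM in the D0 libraries and 40.4 and 30.01 CPM in the D2 libraries. Xaf1 was at 25.4, 19.8 and 18.4 CPM in the Ctrl libraries, 34.4, 32.2 and 29.7 CPM in the D0 libraries and 41.6 and 42.3 CPM in the D2 libraries. Neither gene overlapped with Ctrl in D0 or D2. Trim30a, a regulator of inflammatory signalling, rose in D2 (log2 0.58 ± 0.14) and not in D0, and stood at 101, 72.4 and 75.2 CPM in the Ctrl libraries, 104, 83 and 83.4 CPM in the D0 libraries and 120.3 and 109 CPM in the D2 libraries. The call in D2 was lost in 7 of 24 alternatives, and with the replicate block the gene passed in D0 as well (log2 0.33 ± 0.10, edgeR adjusted p = 0.0430). Ifi35, Ifi44 and Parp14 were not called. Parp14, an ADP-ribosyltransferase, missed the threshold in D2 (log2 0.56 ± 0.17, edgeR adjusted p = 0.0516), which it passed with the block (log2 0.50 ± 0.11, adjusted p = 0.0171).

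**Figure D2:**
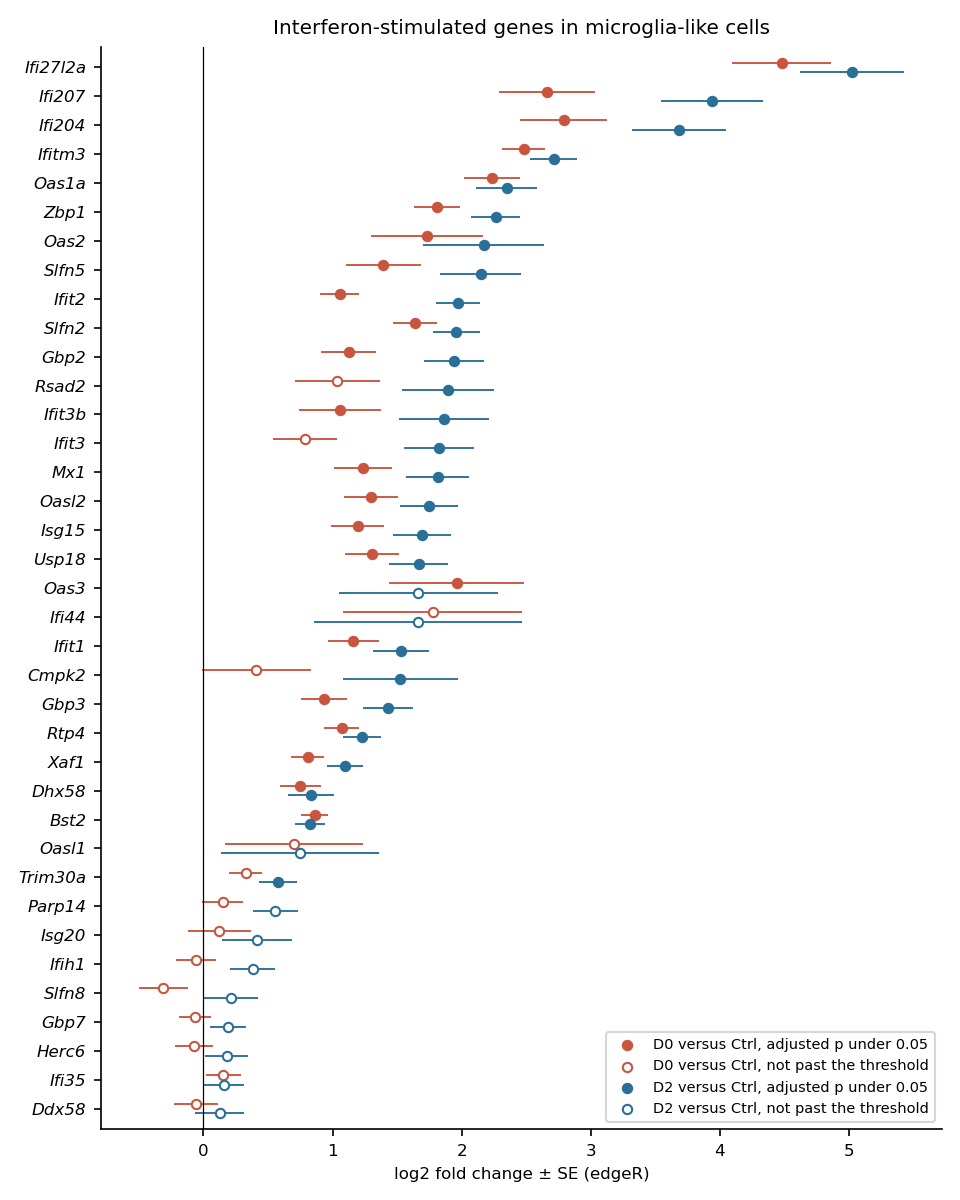
Fitted log2 fold changes of the 37 genes in microglia-like cells with their standard errors (edgeR), D0 against Ctrl and D2 against Ctrl, on a linear axis, with filled points for an adjusted p under 0.05 and open points otherwise. Ifi27l2a lies furthest to the right at 4.48 and 5.02, followed in both comparisons by Ifi204 and Ifi207, Ifitm3 and Oas1a, and the filled points all lie above 0.

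After 2 days without the inhibitor, 26 of 37 members were higher than in Ctrl and 0 lower, against 10.9% of all genes called higher (18.7% called in all). The median log2 fold change was 1.66, compared to -0.03 over all genes, and all 37 fitted values were above 0. Without overlap, 29 members were higher in both D2 libraries than in any Ctrl library, against 18.1% of all genes. D2 and D0 were each compared with the same 3 Ctrl libraries, so the 22 members called in both do not show the response in independent controls. With D2-3 in the fit, 13 members were called, all of them among the 26, with the share of all genes in that fit not given here.

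The difference between D2 and D0 was not called for any member by edgeR, as for 0 of all 12401 genes, with only 2 D2 libraries in the test. At an unadjusted p under 0.05, 16 members were higher in D2 and 0 lower, against 6.81% of all genes in either direction, and DESeq2 called 1. The median difference was 0.41 on the log2 scale. In 23 members both D2 libraries lay above all D0 libraries, against 17.1% of all genes. Ifit2 and Ifi207 were among them, with fitted log2 differences of 0.92 ± 0.17 and 1.28 ± 0.36 (adjusted p = 0.507 and 0.702), while Oas1a (0.12 ± 0.22) and Bst2 (-0.04 ± 0.12) overlapped between D0 and D2.

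The 10 members called in neither comparison were in general not those with few counts. Their median level in Ctrl was 28.4 CPM, and 7 of 10 had at least 20 CPM there, whereas the 22 members called in both comparisons had a median of 7.57 CPM in Ctrl, and 6 of 22 had at least 20 CPM. Isg20, Oasl1 and Ifi44 were the 3 with less. Parp14, Gbp7 and Slfn8 had the highest Ctrl levels of the 10.

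D2-3 stood apart from D2-1 and D2-2 in these genes too. Its summed level was 1481 CPM, above the highest Ctrl library and below all D0 libraries and both other D2 libraries. Without Ifi27l2a, Ifitm3 and Bst2 it was 420.3 CPM, below all Ctrl libraries (503 to 704 CPM). It lay above all Ctrl libraries in 10 members, among them Ifi27l2a (437 CPM), Ifitm3 (274 CPM) and Bst2 (349.8 CPM), and below all Ctrl libraries in 17, among them Ifit1, Ifit2, Ifit3 and Ifit3b. For Ifit3 it held 7.43 CPM. The share of all genes on either side was not taken for D2-3, so the counts of 10 and 17 cannot be read as particular to the list. These 784 cells were not used in any group mean.

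Other genes of the interferon pathway were called in both directions. Of 29 tested genes of the pathway that are no members, 5 rose in D0, among them Stat2, Irf7, Ifnar1 and Ifngr2, and 3 fell (Tmem173, Myd88 and Tlr3), and 6 rose and 3 fell in D2. Over all genes tested, 12.3% were called higher and 7.58% lower in D0, and 10.9% and 7.82% in D2. The rises were 2 of 4 receptor genes in each comparison, and 3 of 8 transcription factor genes in D0 and 4 of 8 in D2. The falls were 3 of 9 upstream sensors and adaptors in each comparison, where 0 rose. Irf3 and Irf5, transcription factor genes that were not called, also had all D0 and D2 libraries below all Ctrl libraries in CPM. Of all genes, 35.8% had this in D0 and 34.7% in D2. Whether the calls divide by part of the pathway was not tested. The median log2 fold change of the 29 genes was -0.07 in D0 and 0.02 in D2. Most of these calls were lost in part of the 14 alternatives run, as given beside each gene. Leaving out single libraries gave between 2 and 9 called in D0 and between 4 and 11 in D2, and a factor for the Cell Ranger version gave 2 and 3. Shares of all genes called in these fits are not given here.

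Ifnb1, the gene for interferon beta, was found at 0.192, 0.803 and 4 CPM in the Ctrl libraries, 0.105, 6.4 and 2.65 CPM in the D0 libraries and 0.866 and 1.07 CPM in the D2 libraries. Its levels overlapped between groups and differed widely within them, and the gene was not called. No UMI of Ifna1, Ifna2, Ifna4, Ifna5 or Ifne and 1 UMI each of Ifnk and Ifng was counted in the microglia-like cells of the 8 libraries, where 3 UMIs would be 0.0171 CPM. The 0.105 CPM of Ifnb1 in D0-1 rest on 2 UMIs and the 4 CPM in Ctrl-3 on 98. A link between Ifnb1 and the members was not tested.

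Of the receptor genes, Ifnar1 was at 69.3, 51 and 54.3 CPM in the Ctrl libraries, 79, 72.5 and 61.8 CPM in the D0 libraries and 88.6 and 95.4 CPM in the D2 libraries, a rise of log2 0.50 ± 0.13 in D0 and 0.77 ± 0.15 in D2. Its partner Ifnar2 was not called, with log2 fold changes of -0.01 ± 0.13 and 0.13 ± 0.15. For the receptor of interferon gamma, Ifngr2 rose by 0.40 ± 0.12 on the log2 scale in D0, and Ifngr1, with -0.25 ± 0.11, was not called. Ifnar1 and Ifngr2 overlapped with Ctrl in D0 on the CPM scale. The call of Ifnar1 was lost in 7 of 14 alternatives in D0 and 3 in D2, and that of Ifngr2 in 10 and 7. The kinase genes Jak1, Jak2 and Tyk2 were called in neither comparison, with log2 fold changes between -0.11 and 0.25.

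Of the factors that receive the signal, Stat2 was at 17.9, 13.7 and 14 CPM in the Ctrl libraries, 21.8, 19.5 and 19.4 CPM in the D0 libraries and 28.8 and 27.2 CPM in the D2 libraries. D0 values of Stat2 were all above Ctrl, and the gene was called (log2 0.62 ± 0.12 in D0 and 0.99 ± 0.14 in D2), though not in 3 of 14 alternatives in D0 and 1 in D2. Irf9, its partner, was called in D2 (log2 0.66 ± 0.17, lost in 7 of 14 alternatives) and not in D0 (log2 0.31 ± 0.15, edgeR adjusted p = 0.171). Irf7, which is both a target of interferon and a driver of its production, had the largest change among the pathway genes called, at 6.01, 4.98 and 4.57 CPM in the Ctrl libraries, 11.9, 18.1 and 15.9 CPM in the D0 libraries and 18.9 and 14.7 CPM in the D2 libraries. All treated libraries of Irf7 held more than any Ctrl library, and it was called under every alternative that was run.

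Some genes of the sensing side were called lower. Tmem173, which encodes STING, the adaptor for DNA in the cytosol, was at 269.9, 285 and 267 CPM in the Ctrl libraries, 175, 140.4 and 188 CPM in the D0 libraries and 146 and 127 CPM in the D2 libraries. Its level fell in both comparisons, by 0.51 and 0.91 on the log2 scale, and the call in D0 was lost in 5 of 14 alternatives. Myd88, the adaptor of most Toll-like receptors, was at 33.6, 39.5 and 39.5 CPM in the Ctrl libraries, 24.7, 24.7 and 23 CPM in the D0 libraries and 22.9 and 20.1 CPM in the D2 libraries and also fell in both, with the call lost in 10 of 14 alternatives in D0 and 2 in D2. Tlr3, a receptor for double-stranded RNA, was called lower in D0 and Mavs, the adaptor of the RNA helicases, in D2. These calls were lost in 8 alternatives for Tlr3 and in 11 of 14 for Mavs, in both cases among them 7 of the 8 fits that left out 1 library, and for Mavs also with the replicate number as a block (edgeR adjusted p = 0.0858).

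RNA of other cell types was present at low level in microglia-like cells and moved with the conditions for part of the lists. The 11 neutrophil markers summed to 210, 265 and 256 CPM in Ctrl, 300.4, 398 and 195 CPM in D0 and 281 and 444 CPM in D2, with 5 of 11 higher in all D0 than in all Ctrl libraries and none at 0. The 10 monocyte markers summed to 7.51 to 9.07 CPM in the Ctrl libraries, 9.36 to 17.1 CPM in D0 libraries and 14.5 to 26.8 CPM in D2 libraries, with 4 of 10 higher in all D0 libraries. At the ratio of these markers to the 37 genes in their own clusters, neutrophil RNA would bring 2.01, 2.45 and 2.99 CPM of the genes to Ctrl, D0 and D2. Monocyte RNA would bring 10.5, 16.5 and 26.2 CPM and border-associated macrophage RNA 8.72, 10.8 and 15.3 CPM, compared to the 821, 1734 and 2440 CPM measured. For Ifitm3 alone, monocyte RNA would bring 5.60, 8.76 and 14.0 CPM, compared to 29.3, 141 and 178 CPM measured. The 7 endothelial markers went the other way, with 30.1 to 37.8 CPM over the Ctrl libraries, 11.3 to 18.0 CPM over D0 and 17.5 to 27.3 CPM over D2. Of 9 dendritic cell markers, Fscn1 and Batf3 gave nearly all of 165 to 401 CPM, and the other 7 summed to 1.88 to 9.06 CPM. At the ratio of all 9, dendritic cell RNA would bring 837, 522 and 426 CPM of the 37 genes to Ctrl, D0 and D2. These values rest almost wholly on Fscn1 and Batf3. Of 12 lymphoid markers, Cd3e and Trac were at 0.

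Microglia-like cells formed 10 clusters, between which the level of the 37 genes differed. Clusters 2, 3, 10 and 11, led by genes such as P2ry13, Bank1 and Klf2, held most Ctrl cells and few D0 or D2 cells. In cluster 2, the level was 658 CPM in Ctrl (633 to 689 over 3 libraries) and 929 CPM in D0 (892 to 983). In cluster 8, led by the mitotic genes Mki67 and Top2a, it was 2442 CPM in D0 and 3743 CPM in D2, with too few Ctrl cells for a value. Over the 8 clusters with at least 20 cells of a Ctrl and a D0 library, the D0 mean was above the Ctrl mean in 6, and between 0.580 and 1.72 times it. The share of cells in each cluster thus moved with the sum over all microglia-like cells, and its part in that sum was not tested. Cells of 2 more clusters also held microglial markers but few UMIs for their library, and were left unnamed. Cluster 6 (1921 cells, led by Ttr, Cst7 and Spp1, median 1671 UMIs) equalled 5.07%, 8.51% and 16.2% of the number of microglia-like cells in Ctrl, D0 and D2, and its 37 genes summed to 942.5 CPM in Ctrl, 2387 CPM in D0 and 2418 CPM in D2. Cluster 15 (403 cells, led by Gm42418, a median of 1217 UMIs) held 796 CPM in Ctrl, 1752 CPM in D0 and 1303 CPM in D2. With all kept myeloid cells, these included, 23 members were called in D0 and 25 in D2. The share of all genes called in that fit is not given here, so these counts cannot be set against it.

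The genes parted within clusters. Ifi27l2a was higher in D0 than in Ctrl in 8 of 8 clusters by the mean and in 7 of 8 without overlap, by 1.77 to 14.0 times, and Ifitm3 in 7 of 8 by the mean, by 0.786 to 3.37 times. For 14 core genes (Ifit1, Ifit2, Ifit3, Ifit3b, Isg15, Rsad2, Oasl1, Oasl2, Oas1a, Mx1, Usp18, Cmpk2, Ifi44 and Rtp4), the D0 mean was higher in 3 of 8 clusters, and without overlap in 1. In cluster 2 the core genes summed to 44.9 CPM in Ctrl and 53.4 CPM in D0, and in cluster 3 to 113 and 83.3 CPM. Cluster 5, led by Chst2, Ifit3 and Fam26f, held 0.934% of the microglia-like cells of Ctrl, 9.99% of D0 and 27.5% of D2, as the mean over libraries. Its 37 genes summed to 3239 CPM in the only Ctrl library with enough cells, 1879 CPM in D0 and 2231 CPM in D2. The clusters were drawn without the 37 genes but from the same cells, so Ifit3 among the leading genes of cluster 5 is a description.

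**Figure D3:**
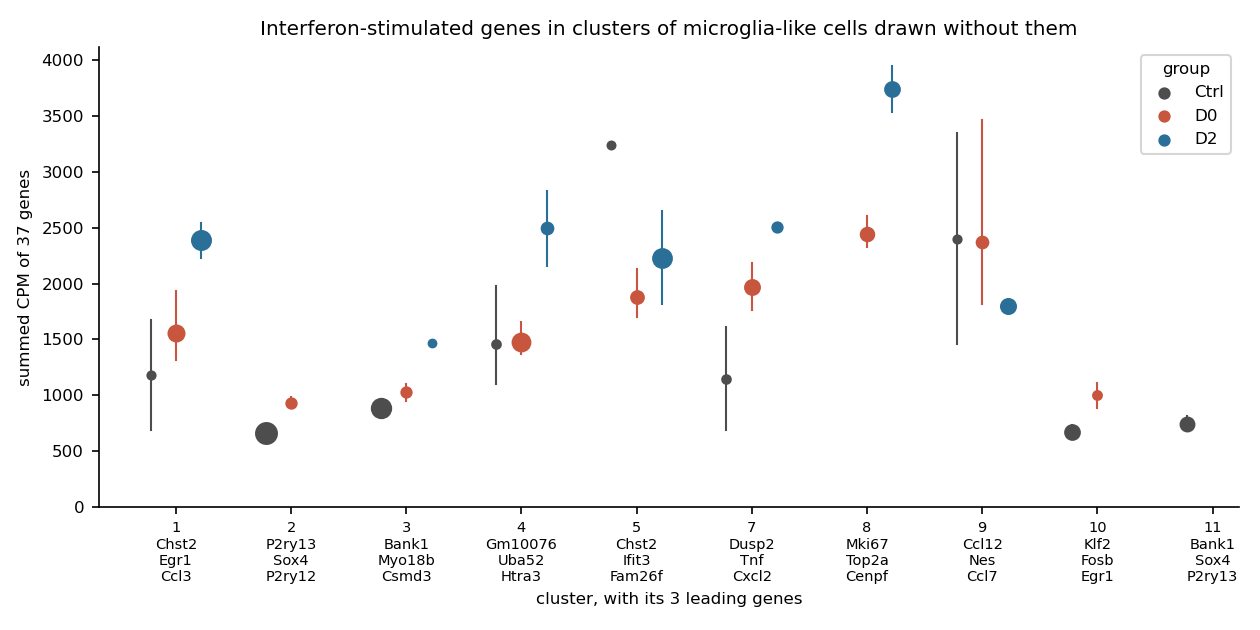
Summed level of the 37 genes in each of the 10 clusters of microglia-like cells, as CPM on a linear axis from 0, with points for group means over libraries with at least 20 cells in the cluster, larger points for a larger share of the group's cells, lines from the lowest to the highest library, and the leading genes under each cluster. The clusters that hold most D0 and D2 cells, such as cluster 8 (2442 CPM in D0), lie above the clusters that hold most Ctrl cells, such as cluster 2 (658 CPM in Ctrl).

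To see whether few cells or many carried these transcripts, every microglia-like cell was thinned to 2000 UMIs, which left out 290 Ctrl, 260 D0 and 329 D2 cells with fewer. Cells with UMIs of at least 3 of the 14 core genes were rare. They made up 0.957%, 0.571% and 1.08% of cells in the Ctrl libraries, 1.82%, 2.18% and 1.91% in D0, and 3.79% and 3.32% in D2, with 95% Wilson intervals that reached from 0.327% to 1.51% over the Ctrl libraries, from 1.36% to 2.70% over D0 and from 2.51% to 4.57% over D2. No Ctrl value reached a D0 value, and no D0 value reached that of D2-1 or D2-2. In D2-3 the share was 0.737% (5 of 678 cells, interval 0.315% to 1.71%), within the range of Ctrl and below every D0 library. Among mural-like cells, the class with the lowest share, it was 1 of 224 cells (0.446%, interval 0.0788% to 2.48%), with a median of 4106 UMIs before thinning against 7146 in microglia-like cells. The Ctrl and D0 shares were within that interval. It rests on 1 positive cell with all conditions pooled, so it is too wide to decide whether these shares exceed a background. Without thinning the mean shares were 2.79%, 7.82% and 9.29%. The cut at 3 is a point on a range, with 18 to 77 cells in each of the 8 libraries holding 1 core gene fewer than the cut and 5 to 41 holding exactly 3.

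The core transcripts were concentrated in those cells and also more frequent outside them. Of the core UMIs, 51.2% of those in Ctrl lay in cells at or over the cut, as did 52.9% of those in D0 and 62.6% of those in D2. The cut is set on the same 14 genes, so each cell over it holds at least 3 core UMIs by definition. These shares are therefore in part fixed by the cut. In the cells below the cut, Ctrl had a mean of 0.0815 ± 0.00678 core UMIs per cell, D0 0.159 ± 0.00909 and D2 0.202 ± 0.0322 (SD over libraries). Most cells had none of the 14 core genes, 92.6% of Ctrl, 85.9% of D0 and 81.5% of D2 cells. The Fano factor (variance over mean) of the core UMIs was 9.85, 9.65 and 10.8, where independent counting alone gives a value of 1. Cells with a UMI of Ifit3 held 15.8 to 51.5 times as many UMIs of the other core genes, Ifit3b left aside, as cells without, over the 8 libraries. For Ifi27l2a, Ifitm3 and Bst2 together the same ratio was 2.29 to 9.87, highest in the 3 Ctrl libraries.

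Some members were found in a larger share of cells after treatment. Ifi27l2a had a UMI in 3.37% of thinned Ctrl cells, 31.9% of D0 cells and 41% of D2 cells (8.64%, 51.5% and 56.7% without thinning). In mural-like cells its share was 2.68% and in endothelial-like cells 8.01%. The shares given here for these classes pool all conditions, with 224 mural-like cells in all, so they are no background for Ctrl alone. The part of free RNA in the Ctrl share was not tested. For Slfn2 the shares were 5.91%, 13.9% and 19.4% (16.9%, 38.1% and 41.4% without thinning), against 2.23% in mural-like cells. Ifi204 had shares of 1.13%, 7.53% and 14.1% (3.33%, 21.2% and 31.7% without thinning), against 0.742% in endothelial-like and 2.23% in mural-like cells, the latter above the Ctrl share. Ifit3 stayed rare, at 1.57%, 2.64% and 4.84% (3.92%, 6.97% and 10.1% without thinning), with 2.23% in mural-like cells.

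Microglia-like cells were not the cells with the highest level of these genes. The mean of the summed level over libraries was 10377 ± 1963 CPM in monocyte-like cells (SD, n = 7), 5004 ± 525 CPM in endothelial-like cells (n = 8), 4203 ± 1354 CPM in dendritic cell-like cells (n = 7) and 3228 ± 826 CPM in neutrophil-like cells (n = 7), compared to 1568 CPM in microglia-like cells and 1074 CPM in mural-like cells. Monocyte-like libraries lay between 8265 and 12734 CPM and endothelial-like ones between 4357 and 6047 CPM, so these classes did not overlap, whereas dendritic cell-like libraries (2554 to 5501 CPM) overlapped both endothelial- and neutrophil-like ones. Of the 37 genes, 17 were highest in endothelial-like, 12 in monocyte-like, 5 in neutrophil-like, 2 in border-associated macrophage-like and 1 in astroglial-like cells, by the mean over libraries. These means rest on unlike mixes of conditions. Border-associated macrophage-like cells had 3 Ctrl libraries and 1 D0 library, and astroglial-like cells 1 D0 and 1 D2 library, so their ranks are not directly comparable. Endothelial cells are not known to carry CD11b, and the 903 endothelial-like cells were nevertheless in the sorted samples.

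**Figure D4:**
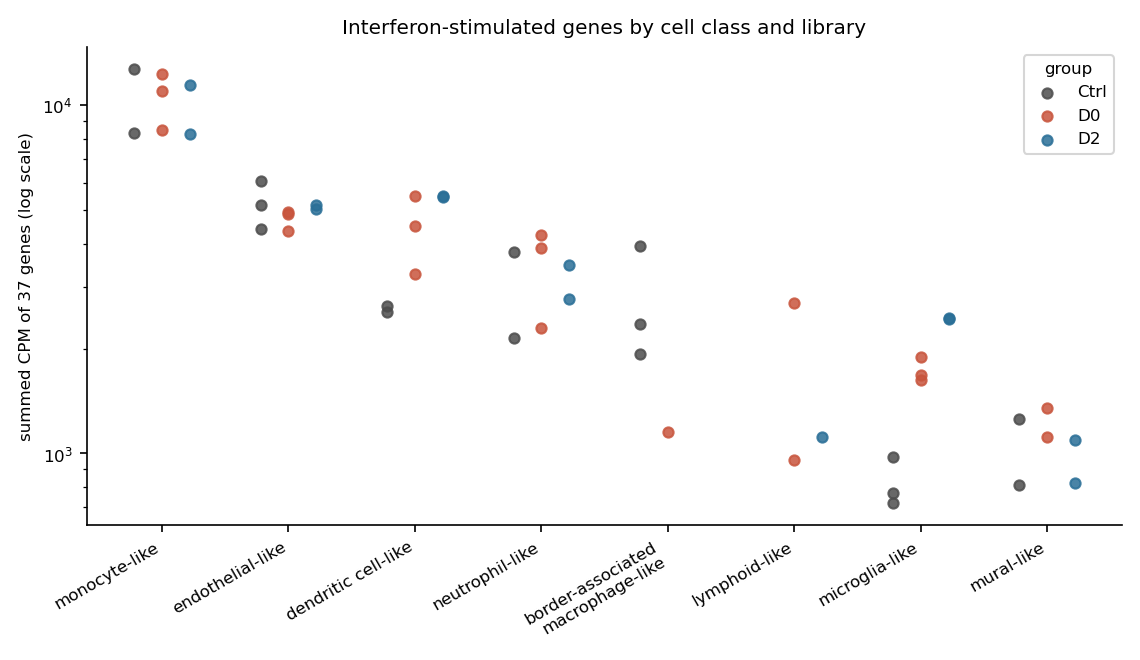
Summed level of the 37 genes by cell class and library, as CPM on a log axis, with 1 point for each library with at least 20 cells of the class, coloured by condition, for 8 classes and without D2-3. Monocyte-like cells lie highest, at 8265 to 12734 CPM, and all D0 and D2 libraries lie above all Ctrl libraries in microglia-like and dendritic cell-like cells.

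The makeup of the sum differed between classes. In monocyte-like cells, Ifitm3 alone gave a mean of 5494 ± 1078 CPM and Ifi27l2a 1339 ± 281 CPM. Ifitm3 was at 4541 and 7059 CPM in Ctrl, 5334, 4605 and 6863 CPM in D0 and 4534 and 5520.2 CPM in D2, levels that overlapped between conditions. Endothelial-like cells held more of the core genes, with Isg15 at 288, 299 and 373 CPM in Ctrl, 305, 266 and 346 CPM in D0 and 379 and 417 CPM in D2, and Ifit3 at 94.5, 188 and 164 CPM in Ctrl, 88.3, 84.5 and 113 CPM in D0 and 131 and 143 CPM in D2. Their Ifitm3 was at 1196, 2133 and 1644 CPM in Ctrl, 1263, 1763 and 1579 CPM in D0 and 1588 and 1391 CPM in D2. At 2000 UMIs per cell, 26.6% of endothelial-like cells (Wilson interval 23.4% to 30.02%) had at least 3 core genes, against 1.89% of microglia-like cells over all 8 libraries, 10.2% of monocyte-like, 8.13% of neutrophil-like and 6.65% of dendritic cell-like cells, with median UMIs before thinning of 3644 in endothelial-like, 7251 in monocyte-like, 3331 in neutrophil-like and 10535 in dendritic cell-like cells. Slfn5 showed the same preference, with a mean of 436 CPM in endothelial-like and 15.3 CPM in microglia-like cells.

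Outside microglia-like cells, edgeR called no member against Ctrl in the 5 classes that could be tested. In endothelial-like cells, 0 of 30 tested members were called in D0 or D2, where 0.0122% and 0.0608% of all genes were, with 1 higher and 5 lower at an unadjusted p under 0.05 in D0 and 2 lower in D2. Of all 8220 genes, 423 in D0 and 684 in D2 passed that unadjusted p. DESeq2 called 1 of the 30 members in D0 and 0 in D2. In monocyte-like cells 0 of 35 were called (0.866% and 1.37% of all genes), with 1 and 4 at the unadjusted p, and in neutrophil-like cells 0 of 24 (0.11% and 2.79%), with 0 and 3. Of all genes, 870 and 1044 of 6117 passed the unadjusted p in monocyte-like cells, and 475 and 951 of 4558 in neutrophil-like cells. Mural-like cells had 5 members to test and 0 called in either comparison with Ctrl (0.0235% and 0.0939% of all genes). Of these 5 members, 0 passed the unadjusted p in either comparison with Ctrl, against 185 and 227 of all 4258 genes. DESeq2 called 0 in these 3 classes. Border-associated macrophage-, lymphoid-, ependymal- and astroglial-like cells had too few libraries for a test.

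Dendritic cell-like cells held more UMIs of these genes in D0 and D2 than in Ctrl, without a call for a single member. Their summed level was 2652 and 2554 CPM in 2 Ctrl libraries, 3274, 4491 and 5497 CPM in D0 and 5501 and 5452 CPM in D2. Of 33 members tested, 0 were called by edgeR in either comparison, as were 0.0138% of all genes, but 17 were higher and 0 lower at an unadjusted p under 0.05 in D0, and 25 and 0 in D2. Of all 7225 genes, 451 in D0 and 453 in D2 passed that unadjusted p in either direction. DESeq2 called 1 and 3 of the 33 members. Isg15 was at 9.83 and 29.3 CPM in Ctrl, 44.1, 175 and 194 CPM in D0 and 279 and 219 CPM in D2. The Ctrl values rest on 24 and 21 cells, and without a filter on low counts 11 and 19 members were called. The share of all genes called without the filter is not given here.

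The difference of the condition effect between classes was tested in fits that held both classes of each library. In endothelial-like cells the effect was lower than in microglia-like cells for 16 members in D0 and 19 in D2 and higher for 0, against 3.37% and 3.41% of all genes called in either direction (edgeR). For Ifitm3 the log2 difference was -2.57 ± 0.22 in D0 and -2.82 ± 0.24 in D2, for Ifit3 -1.43 ± 0.28 and -1.98 ± 0.30, and for Isg15 -1.29 ± 0.20 and -1.40 ± 0.22. Monocyte-like cells differed in the same direction for 13 members in D0 and 20 in D2 (2.71% and 3.11% of all genes), Ifi27l2a by -4.43 ± 0.26 and -5.14 ± 0.28. Ifitm3 and Ifi27l2a were each above 1000 CPM in monocyte-like cells of both Ctrl libraries, against at most 40.2 CPM in Ctrl microglia-like cells. Without Ctrl-2, the endothelial-like difference in D2 was called for 12 members, with the share of all genes in that fit not given here.

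Neutrophil-like cells had a lower effect than microglia-like cells for 4 members in D0 and 9 in D2 (1.23% and 3.84% of all genes), and mural-like cells for 3 and 4 (1.02% and 1.15%). Dendritic cell-like cells differed for 4 and 6 members (2.09% and 2.36%), in both directions. Ifi27l2a had the lower effect there, by -3.21 ± 0.26 and -3.92 ± 0.28, and Gbp7 the higher, by 2.14 ± 0.57 and 2.54 ± 0.57. Isg15 was also higher in effect in D2, by 2.38 ± 0.65 (adjusted p = 0.0408). RNA of microglia was found in each of these classes, P2ry12 being at 5.29% of its microglial level in endothelial-like, 6.86% in monocyte-like, 4.13% in dendritic cell-like, 8.90% in neutrophil-like and 5.92% in mural-like cells, and the part of it in these differences was not tested.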

How the data were processed

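Cells sorted for CD11b were profiled by droplet 3′ single-cell RNA sequencing in 9 libraries. The deposited matrices hold raw UMI counts per gene and barcode, which the authors made with Cell Ranger against mm10. The submitters' processing notes name version 3.1.0, while the file headers name 3.0.2 for 6 of the 9 libraries. No normalized values were used.

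Following the limits of the study, a barcode was kept as a cell if it held 200 genes or more, no fewer than 500 and no more than 20000 UMIs, and mitochondrial UMIs did not exceed 10%. Scrublet marked 59 of 30463 cells (0.194%), too few to have worked, so no cell was removed as a doublet and doublets remain possible. Cells of 8 libraries were clustered with scanpy 1.11.5 and leidenalg 0.10.2 (3000 variable genes, 10 principal components, 20 neighbours, resolution 0.6) without the 37 genes, and D2-3 cells were placed by 30 neighbours. A cluster took the name of another type if at least 3 of its markers were at 20 CPM or more with a log2 fold above 1 (pseudocount 10 CPM) and no fewer of them than of microglia, and otherwise became microglia-like with at least 3 markers at 100 CPM or more. It stayed unnamed if its top 10 genes held more markers of another type, or none of its own while its cells were shallow for their library. This left out clusters 6 and 15 of 1921 and 403 cells (medians at 0.290 and 0.190 of the library medians), with 11 and 12 of 12 microglial markers at 100 CPM or more. The naming rule was set after the clusters were seen.

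UMIs were summed per library and class, where a library had at least 20 cells, and tested with the edgeR 4.0.16 quasi-likelihood test in R 4.3.3 (TMM scaling, filterByExpr, Benjamini-Hochberg over all genes tested), with all 3 groups in one fit. Differences between classes were tested with library as a block. The scripts were tested on simulated data. Alternatives were DESeq2 1.42.0, other scalings and filters, other clusterings and depths, and leaving out each library. D2-3, left out by the study, and Cell Ranger version as a term entered as alternatives. Deviations from the group mean correlated in all 3 same-numbered pairs of Ctrl and D0 (r = 0.412, 0.186 and 0.169), although Ctrl-3 correlated more with D0-2 (0.304), and not in all pairs with D2 (-0.126 to 0.264). The labels do not state that the numbers pair libraries, and these correlations do not settle it. Blocked values are given where a call changes, as an alternative only. A library is 1 mouse or 1 pool, and p-values measure the spread between libraries. Genes are named with values when called in microglia-like cells, at 20 CPM or more there, or at 100 CPM or more in another class, and pathway genes when called or when a receptor, kinase or interferon-activated factor. Some genes under this rule are not reported here. Members named below these levels were chosen after their values were seen. The genes and lists were chosen with earlier results of these data known. Intervals are 95% Wilson intervals, and they and the floor of 3 UMIs cover counting error only. Positions are from GENCODE on GRCm38 and promoters from RefSeq on GRCm38.p6.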

Additional observations from a re-analysis of the deposited data

Results flagged for a closer look

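The effect of condition on single members differed between microglia-like cells and the other classes in tests of the difference itself (edgeR). The number of members that differed in D0 and D2 against Ctrl was 16 and 19 for endothelial-like, 13 and 20 for monocyte-like, 4 and 9 for neutrophil-like, 3 and 4 for mural-like and 4 and 6 for dendritic cell-like cells. In endothelial-like cells the log2 effect was lower than in microglia-like cells by -2.57 and -2.82 for Ifitm3, -1.43 and -1.98 for Ifit3 and -1.29 and -1.40 for Isg15. In monocyte-like cells the values were -2.60 and -3.04 for Ifitm3 and -4.43 and -5.14 for Ifi27l2a.

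In D2-3, which no group mean uses, some microglia-like levels were above all Ctrl libraries. They were the sum over the 37 genes, 1481 CPM, with Ifi27l2a at 437 CPM, Bst2 at 349.8 CPM, Ifitm3 at 274 CPM, Slfn2 at 76.2 CPM, Ifi35 at 49.4 CPM, Isg15 at 37.1 CPM and Ifi204 at 28.8 CPM. The same library was below all Ctrl libraries in 17 members, and its sum without Ifi27l2a, Ifitm3 and Bst2 was 420.3 CPM, below all Ctrl libraries (503 to 704 CPM). The share of all genes above or below all Ctrl libraries in D2-3 was not taken.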

How the results depend on the processing

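No member called in microglia-like cells turned direction under any alternative run. The number called in D0 was 19 to 26 and in D2 22 to 29 when single libraries were left out, 14 and 21 with Cell Ranger version as a term, and 9 and 13 with D2-3 included. Shares of all genes called in the alternative fits are not given in this section, so these counts do not show whether members lost more calls than other genes. For D2 against D0 the count of 0 became 1 with DESeq2 and 3 without a filter on low counts. Pathway genes called in D0 numbered 8 in the main test, 2 with the version term and 1 with D2-3, and 2 to 9 without single libraries (2 without Ctrl-2, Ctrl-3 or D0-2, and 5 without D2-1 or D2-2). In D2 they numbered 9, then 3 with the version term, 3 with D2-3, and 4 to 11 without single libraries (4 without D2-2).

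For dendritic cell-like cells the counts of 0 in D0 and D2 became 1 and 3 with DESeq2, 11 and 19 without a filter, and 0 to 3 without single libraries (3 without D0-1). Without a filter 3 members were called in neutrophil-like and 1 in endothelial-like cells in D0, and DESeq2 also gave 1 in endothelial-like cells. Differences from microglia-like cells numbered 2 and 2 for dendritic cell-like cells with DESeq2 (2 to 9 in both comparisons without single libraries, 2 without Ctrl-3, and in D0 9 without D0-3 and 7 without D0-1 or D2-2, and in D2 3 without Ctrl-1). With DESeq2 they were 7 in D0 for monocyte-like cells (7 to 14 without single libraries, 7 without Ctrl-3 and 8 without D0-2), 4 in D2 for neutrophil-like and 2 in D2 for mural-like cells. Without single libraries, the ranges were 2 to 6 and 2 to 12 for neutrophil-like cells (2 without Ctrl-2, and 4 in D2 without D2-1), 12 to 21 in D2 for endothelial-like cells (12 without Ctrl-2), and 1 to 3 and 1 to 4 for mural-like cells (1 without Ctrl-1, and 2 in D2 without D2-1). The cause of these changes was not tested.

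With a replicate block, 26 members were called in D0, 27 in D2 and 0 between them, 9 and 8 pathway genes, 1 member in endothelial-like cells in D0, and no other call count of another class changed. Between D0 and Ctrl the block changed the calls of 3 members and of Socs3 (adjusted p = 0.0272 with it, edgeR), and between D2 and Ctrl those of Parp14 and Mavs. Scaled by library size only, the median of all genes was -0.26 in D0 and -0.14 in D2, and 22 and 24 members were called.

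The mean shares of microglia-like cells with the core genes in Ctrl, D0 and D2 were 0.440%, 0.955% and 1.76% at 1000 UMIs, 1.53%, 4.16% and 6.42% at 4000 UMIs, 1.68%, 3.88% and 6.04% with at least 2 core genes, 0.557%, 1.17% and 2.18% with at least 4, and 2.79%, 7.82% and 9.29% without thinning. With D2-3 the D2 share was 2.62%. The order of the 3 groups was the same in each. The version term could not be fitted for monocyte-like and neutrophil-like cells, and D2-3 was not added for mural-like cells. Only 2 D2 libraries limit that group, and genes under a few CPM rest on few UMIs.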
